A study of Arabidopsis thaliana with 2 samples.

Results

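The ATG8 family of Arabidopsis thaliana comprises 9 loci, ATG8A to ATG8I, chosen by locus identifier. All 9 were among the 13356 genes that the array annotation named, and all 9 passed the filter that left 6381 genes as measured. A gene counted as measured when the higher of its 2 intensities reached the median of that array. The genes were put forward with their ratios in view, so the direction they share is given as a description.

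The data are 2 ATH1 arrays, Affymetrix chips that read a single labelled sample through sets of short oligonucleotide probes, a set for each transcript. The first carried RNA of the auxin-resistant line axr4-2 in the Col0 ecotype, and the second RNA of Col0 control plants with no genetic modification in their labels. Both samples were whole plants at growth stage 1.02, kept in light for 24 h a day at 22 °C. With 1 array per group there was no test, no SD between replicates and no p-value, and the labels do not say how many plants each RNA came from. AXR4, the gene mutated in this line, encodes an endoplasmic reticulum protein that the auxin importer AUX1 needs to reach the cell surface. Its transcript is not analysed here and could not serve to check the mutant label.

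ATG8 proteins are small ubiquitin-like proteins that are joined to phosphatidylethanolamine in the membrane of the growing autophagosome, the vesicle that carries cell contents to the vacuole. The protease ATG4 trims most of them to a C-terminal glycine, ATG7 and ATG3 act as the activating and conjugating enzymes, and the ATG5, ATG12 and ATG16 proteins help to place ATG8 on the membrane. Membrane-bound ATG8 recruits cargo receptors, and ATG8 transcripts are known to accumulate in starved or senescing tissue. The plant family falls into the related groups ATG8A to ATG8D and ATG8E to ATG8G, and the more distant ATG8H and ATG8I, whose proteins lack the stretch that follows the glycine.

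All 9 ATG8 genes had lower deposited intensities on the axr4-2 array than on the Col0 array, by differing amounts, although for ATG8A and ATG8G the sign turned under other scalings. Their log2 ratios of axr4-2 over Col0 ranged from -0.87 to -0.02, with a median of -0.27 and an SD across the 9 genes of 0.26. Over all measured genes 54.1% had a log2 ratio under 0, the median was -0.04 and the SD across genes was 0.41. ATG8E stood lowest, ATG8I, ATG8C, ATG8D, ATG8B and ATG8F were intermediate, and ATG8H, ATG8A and ATG8G were close to equal on both arrays. In RNA from whole plants, fewer cells that express a gene and less RNA per cell cannot be told apart.

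Each ATG8 gene was read by a single probe set, and none of the 9 probe sets carried the suffix that marks one shared between transcripts. ATG8E, ATG8F and ATG8G formed the group with the widest spread. ATG8E (AT2G45170, probe set 266106_at) had an intensity of 578.2 in axr4-2 and 1056.4 in Col0, a log2 ratio of -0.87, which makes the axr4-2 intensity 45.3% lower. Only 2.57% of measured genes had a lower ratio. ATG8F (AT4G16520, 245391_at) had 1100.9 in axr4-2 and 1322.4 in Col0, a log2 ratio of -0.26 or 16.7% lower. ATG8G (AT3G60640, 251393_at) had 84 in axr4-2 and 85.4 in Col0, a log2 ratio of -0.02. These 3 related genes thus covered both ends of the family's range.

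Among ATG8A to ATG8D, 3 genes had log2 ratios from -0.41 to -0.27 and ATG8A was nearly level. ATG8C (AT1G62040, 264285_at) had an intensity of 314.4 in axr4-2 and 418.1 in Col0, a log2 ratio of -0.41 or 24.8% lower. ATG8D (AT2G05630, 265510_at), the dimmest of the family, had 60 in axr4-2 and 78.1 in Col0, a log2 ratio of -0.38. ATG8B (AT4G04620, 255283_at) had 96.7 in axr4-2 and 116.8 in Col0, a log2 ratio of -0.27. ATG8A, which the reference table lists as APG8A (AT4G21980, 254346_at), differed least in this group, with 218.1 in axr4-2 and 222.3 in Col0, a log2 ratio of -0.03. The median of the 4 log2 ratios was -0.33.

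ATG8H and ATG8I also had unlike log2 ratios as read by their single probe sets. ATG8I (AT3G15580, 257293_at), which the reference table lists under the symbol APG8H, had an intensity of 411.5 in axr4-2 and 555.9 in Col0, a log2 ratio of -0.43 or 26.0% lower. ATG8H (AT3G06420, 258880_at) had 143.4 in axr4-2 and 152.7 in Col0, a log2 ratio of -0.09. Each of the 3 groups of related genes therefore held both a gene close to 0 and 1 of the 3 lowest genes of the family, ATG8E, ATG8I and ATG8C. The SD across the 9 genes, 0.26, was below the SD of 0.41 estimated further on for a single probe set. Contrasts within the groups are therefore descriptions.

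**Figure D1:**
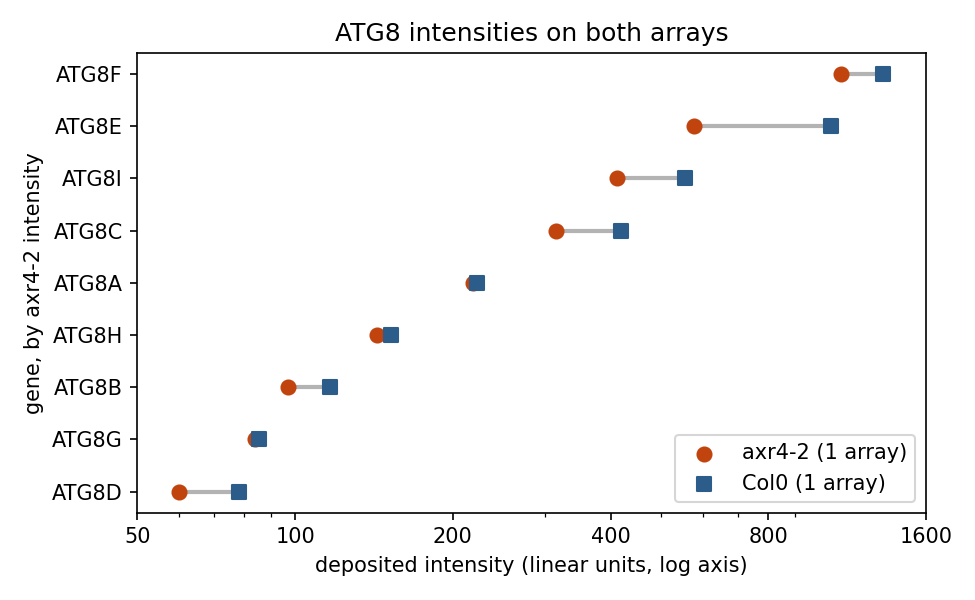
Deposited intensity (x, log axis) of each ATG8 gene (y) on the axr4-2 array (circles) and the Col0 array (squares), 1 array per group, with a line joining the 2 values. The circle lies left of the square for all 9 genes, a direction that turned with scaling for ATG8A and ATG8G, and the longest line is that of ATG8E (578.2 in axr4-2 and 1056.4 in Col0).

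The order of the 9 intensities was the same on both arrays. From brightest to dimmest it ran ATG8F, ATG8E, ATG8I, ATG8C, ATG8A, ATG8H, ATG8B, ATG8G and ATG8D. Probe sets differ in how brightly they read a transcript, so this is an order of signals and not of transcript amounts. Intensities ran from 60 to 1100.9 in axr4-2 and from 78.1 to 1322.4 in Col0. ATG8F was brighter than 97.8% of all probe sets on the axr4-2 array and 98.4% on the Col0 array, and ATG8D was brighter than 60.3% in axr4-2 and 66.1% in Col0. The closest neighbours were ATG8B and ATG8G in axr4-2, 0.20 apart on the log2 scale, and ATG8G and ATG8D in Col0, 0.13 apart. Without replicates no spread was available to tell such neighbours apart.

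Although the order was kept, the distances within it were not. ATG8F and ATG8E, the brightest pair, were 0.93 apart on the log2 scale in axr4-2 and 0.32 apart in Col0. The next step down, from ATG8E to ATG8I, was 0.49 in axr4-2 and 0.93 in Col0. ATG8E thus lay closer to ATG8F in Col0 and closer to ATG8I in axr4-2.

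Ratios between 2 genes on the same array do not depend on how the arrays were scaled to each other by a constant. The intensity of ATG8E over that of ATG8F was 0.525 in axr4-2 and 0.799 in Col0. ATG8E over ATG8I, the pair that differed least between arrays, was 1.41 in axr4-2 and 1.90 in Col0. ATG8E over ATG8G, the pair that differed most, was 6.88 in axr4-2 and 12.4 in Col0. As ATG8E was singled out for the lowest ratio of the family, its intensity relative to any other member had to be lower in axr4-2, and only the sizes are of use. The log2 differences ran from -0.85 to -0.44, and all 8 share the ATG8E values.

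**Figure D2:**
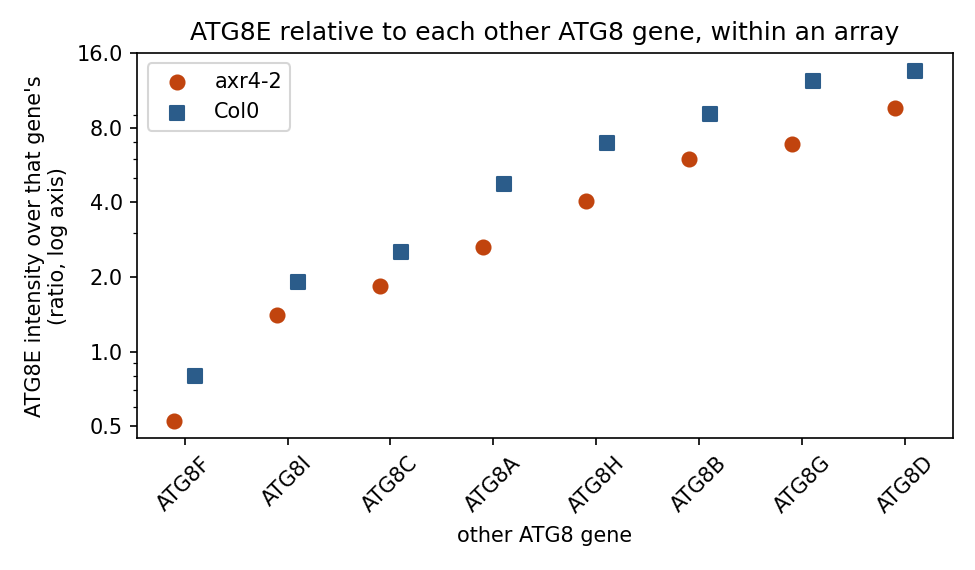
Intensity of ATG8E divided by that of each other ATG8 gene on the same array (y, log axis), for axr4-2 (circles) and Col0 (squares), 1 array each. The pairs run from 0.525 in axr4-2 and 0.799 in Col0 for ATG8F to 9.64 in axr4-2 and 13.5 in Col0 for ATG8D; that circles lie lower follows from the choice of ATG8E, the gene with the lowest log2 ratio.

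Background shares place these ratios among genes of like brightness. At a log2 ratio of -0.5 or less, which 11.8% of all measured genes reached, ATG8E was the only member. No ATG8 gene was 2-fold or more lower (a log2 ratio of -1 or less, 1.47% of measured genes) and none 2-fold or more higher (0.94%). ATG8E, ATG8F and ATG8I had mean intensities over the 2 arrays of 400 to 1600. In that band 32 of 611 measured genes, 5.24%, lay at -0.5 or less, and the SD across genes was 0.29. For ATG8A, ATG8B, ATG8C and ATG8H, of mean intensity 100 to 400, the share was 7.77% and the SD 0.35. For ATG8D and ATG8G, under 100, it was 16.3% with an SD of 0.47. The share of genes with a log2 ratio under 0 was 48.1% in the brightest of these bands, 49.6% in the middle band and 58.9% in the dimmest.

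**Figure D3:**
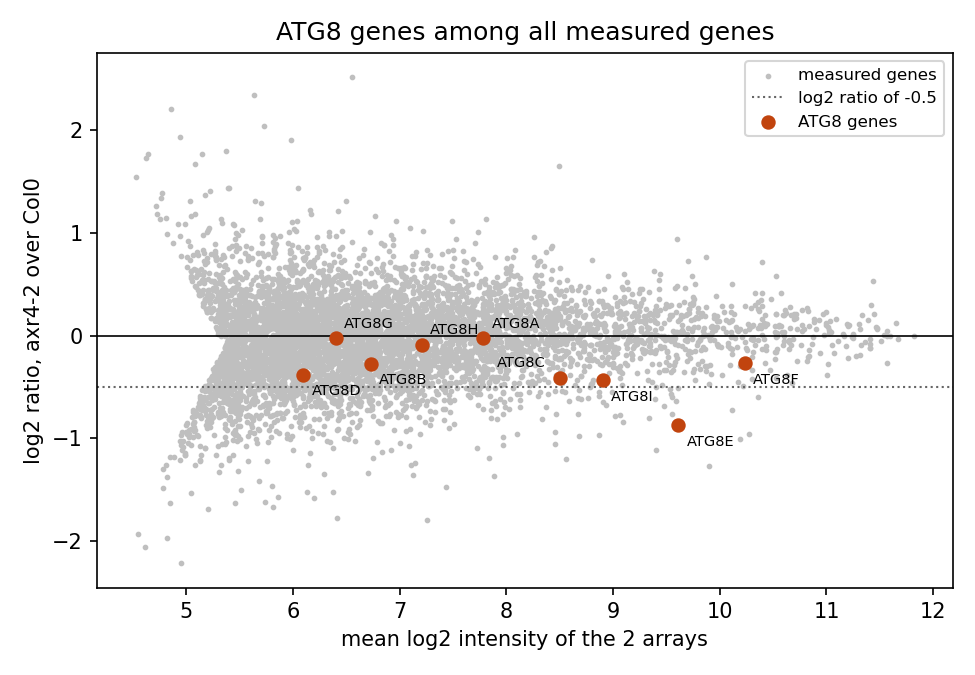
Log2 ratio of axr4-2 over Col0 (y) against mean log2 intensity of the 2 arrays (x) for the 6381 measured genes (grey) and the 9 ATG8 genes (labelled). The spread narrows with brightness; ATG8E, at -0.87, is the only ATG8 gene under the dotted line at -0.5.

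Across the 9 genes, brighter members tended to have lower ratios, with a Pearson r of -0.51 between log2 ratio and mean log2 intensity. Without ATG8E the r was -0.30 over 8 genes. Over all 6381 measured genes the r was 0.10, of the opposite sign. These correlations are across genes that share the same 2 arrays and are given as descriptions only.

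No replicate error was available, and 2 substitutes set a scale. Of all measured genes, 30 were also read by another measured probe set, and the disagreement within these pairs gave an SD of 0.41 for the log2 ratio of a single probe set. In 19 of the 30 pairs both ratios had the same sign. The pairs were pooled over all levels of brightness, so this SD is not matched to the brightness of each ATG8 gene. The ratios of ATG8E, ATG8I and ATG8C exceeded that SD in size, ATG8C only barely, and those of the other 6 genes did not. The SD across all measured genes was also 0.41, and the share of them beyond this size in either direction was not counted. On the low side, 15.2% of measured genes had a lower ratio than ATG8I and 16.4% a lower ratio than ATG8C. Passing that SD therefore does not set ATG8I and ATG8C apart from other genes. The 18 probe sets for the control transcripts bioB, bioC, bioD and cre, spiked in at set doses, had log2 ratios averaging 0.09 with an SD of 0.18. Of these probe sets 15 lay above 0, but several read the same transcript, so they are not separate readings. Neither figure includes variation between plants.

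The log2 ratio stayed below 0 in all 9 settings tried for 7 of the 9 genes and turned for 2. Settings that changed only the floor or the choice of probe sets could not move these values. The floors lay below all ATG8 values, and each gene had a single unshared probe set. ATG8E ranged from -0.91 to -0.83, ATG8I from -0.48 to -0.40 and ATG8C from -0.46 to -0.37. The range of ATG8D was -0.38 to -0.26. ATG8A changed sign with median centring (0.011), and ATG8G changed sign with median centring (0.014), quantile normalization (0.026) and removal of the trend of ratio on intensity (0.035). The sign of both genes is therefore not settled by these arrays.

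**Figure D4:**
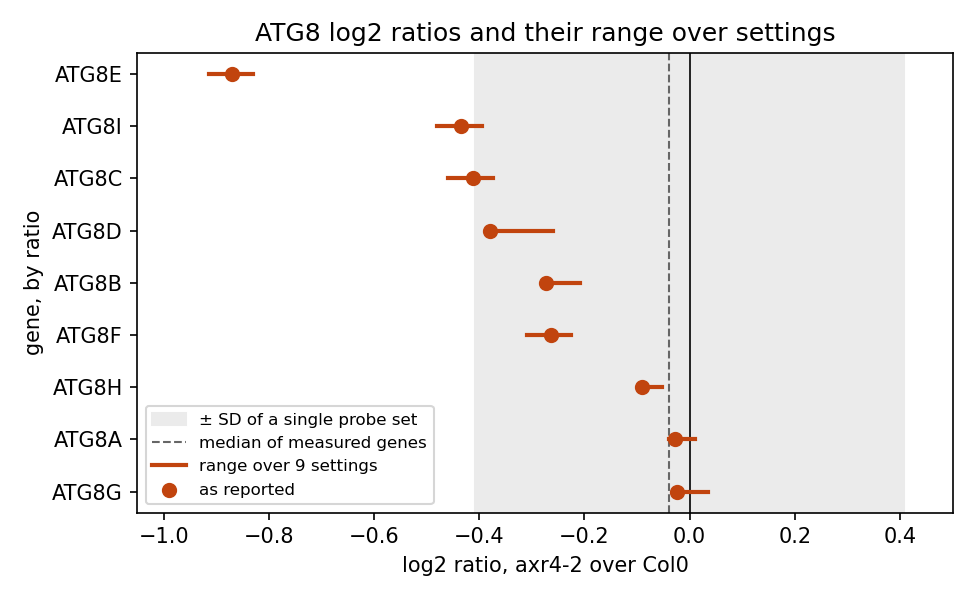
Log2 ratio of axr4-2 over Col0 (x) of each ATG8 gene (y): points as reported, bars the range over 9 settings, grey band the SD of a single probe set (0.41) on both sides of 0, dashed line the median of all measured genes (-0.04). ATG8E lies well outside the band, ATG8I and ATG8C lie at its edge, and the bars of ATG8A and ATG8G cross 0.

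RNA quality readings were not alike. Control transcripts are read near both ends, and a high ratio of 3′ to 5′ signal is a sign of degraded RNA. This ratio was higher in Col0 in 4 of 6 control pairs. For the newer actin pair it was 2.12 in axr4-2 and 3.23 in Col0, and for the newer ubiquitin pair 1.81 in axr4-2 and 2.26 in Col0. The older actin pair went the other way, with 7.78 in axr4-2 and 4.08 in Col0. Scan background, per the labels, averaged 70.79 in axr4-2 and 80.02 in Col0. The part of these readings in the ATG8 ratios was not tested.

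Of the listed markers, 3 of 6 for shoot, 3 of 6 for root and 1 of 3 for seed had a named probe set. Those of shoot and root lay above the median of both arrays. The photosynthesis markers LHCB4.1, RCA and PRK had intensities of 2630.3 to 3366 in axr4-2 and 2431.9 to 3095.1 in Col0, with log2 ratios of 0.08 to 0.12. PYK10, an abundant root beta-glucosidase, had 2981.9 in axr4-2 and 2966.9 in Col0. The seed storage gene PAP85 had 19.4 in axr4-2 and 56 in Col0. It passed the filter only through Col0, and its axr4-2 value lay near that of the brightest Bacillus control there (18.1), which should read no RNA, so no ratio is given. The other root markers measured were dim, not far above the array medians of 39.5 in axr4-2 and 42.7 in Col0. EXPA7 had 41.8 in axr4-2 and 51.3 in Col0, a log2 ratio of -0.30. EXPA18 had 54.1 in axr4-2 and 51.9 in Col0, a log2 ratio of 0.06. The part of tissue make-up in the ATG8 ratios was not tested.

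Few other autophagy genes could be read. Of 44 loci on 5 lists outside ATG8, 12 had a named probe set and 8 were measured. Of these 8, 5 lay below 0 and 3 above, while 54.1% of all measured genes lay below 0. The median log2 ratio of the 8 was -0.17, beside -0.04 for all measured genes. With the filter raised to the 75th percentile 4 loci remained and the median turned to 0.0064. None of the 8 was 2-fold apart, beside 1.47% of all measured genes 2-fold or more lower and 0.94% 2-fold or more higher. None was at -0.5 or less, which 11.8% of all measured genes reached. With so few loci these counts do not set the lists apart from all measured genes. AT4G34660, among those above 0, passed the filter only through its axr4-2 value. The listed loci DSK2 (AT2G17200) and AT2G17190 shared a probe set and were left out of these counts. That probe set had 237.6 in axr4-2 and 225.9 in Col0, a log2 ratio of 0.07.

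The enzyme that conjugates ATG8 to lipid had a log2 ratio above 0 as reported. ATG3 (AT5G61500) had an intensity of 174.4 in axr4-2 and 147.9 in Col0, a log2 ratio of 0.24. ATG101 (AT5G66930), a subunit of the ATG1 kinase complex that starts autophagosome formation, had 122.2 in axr4-2 and 132.9 in Col0, a log2 ratio of -0.12. Both ratios were smaller in size than that SD of 0.41.

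The other 6 measured loci carry no autophagy name in the reference table, so their place on the lists rests on the locus identifier alone and they are given by locus tag. AT4G34660 was the highest, with an intensity of 65.1 in axr4-2 and 40.1 in Col0, a log2 ratio of 0.70. Its Col0 value lay under the median of that array (42.7), so it was kept only through the array on which it was high. AT2G32760 was the lowest, with 65.8 in axr4-2 and 86.8 in Col0, a log2 ratio of -0.40. AT5G50230 lay at -0.34, AT2G37840 at -0.25, AT3G59950 at -0.22 and AT3G61960 at 0.13. A second, dimmer probe set of AT2G37840 had 10.8 in axr4-2, below the floor of that array, and 30.8 in Col0. The 4 loci left out by the filter were dim, with at most 40.4 on either array.

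By role, probe sets named for a single gene were found for 3 of 9 loci listed for the conjugation enzymes and 6 of 8 for the ATG1 kinase complex. They were also found for 2 of 6 loci of the PI3-kinase complex that marks the forming membrane, and 1 of 11 for cargo receptors and interactors. There was none for the 10 loci of the ATG9 and ATG18 group, which supplies and shapes that membrane. ATG7, ATG5 and the receptor NBR1 are not analysed here.

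Of the lists around autophagy, only RAPTOR1 and members of the vacuolar processing enzymes were measured. RAPTOR1, a subunit of the TOR kinase complex that holds autophagy back in fed cells, had 48.5 in axr4-2 and 56 in Col0, a log2 ratio of -0.21. RAPTOR2 was left out by the filter, with 25.2 in axr4-2 and 31 in Col0. GAMMA-VPE, a vacuolar protease gene of vegetative tissue, had 402.1 in axr4-2 and 376.5 in Col0, a log2 ratio of 0.09, and BETA-VPE had 39.5 in axr4-2 and 39.2 in Col0, a log2 ratio of 0.01. BETA-VPE lay at the median of the axr4-2 array (39.5) and under that of the Col0 array (42.7), so the filter kept it only through axr4-2. ALPHA-VPE was below the floor on both arrays. The senescence regulator WRKY53 was left out by the filter, with 36.1 in axr4-2 and 25.1 in Col0. The 8 starvation and dark-inducible genes, 16 genes for other ubiquitin-like proteins and 6 regulators had no named probe set and are not analysed here.

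**Figure D5:**
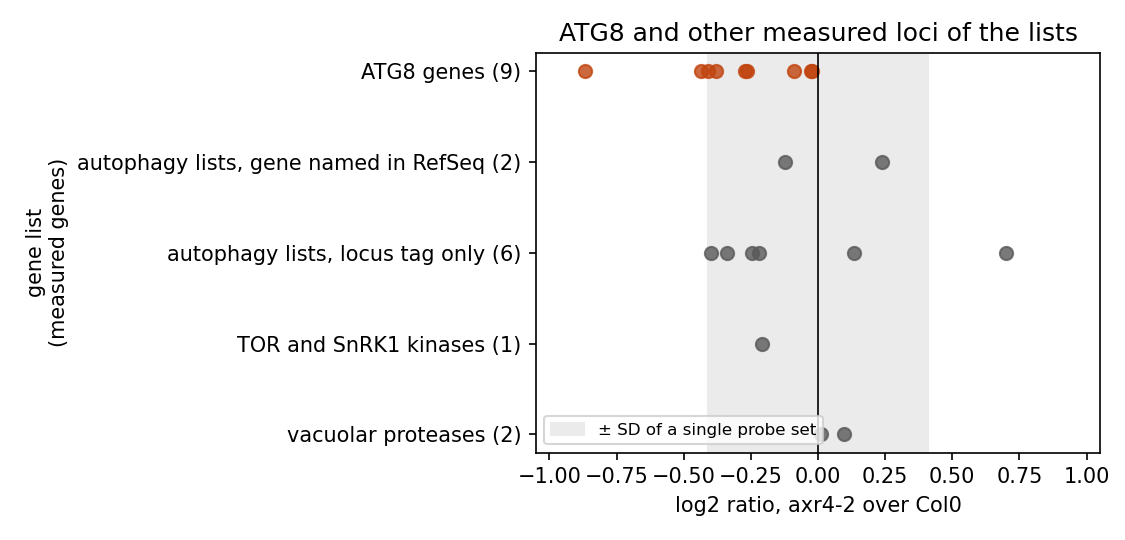
Log2 ratio of axr4-2 over Col0 (x) of every measured gene on each list (y, number of measured genes in brackets), with the SD of a single probe set (0.41) on both sides of 0 in grey. The 9 ATG8 genes lie between -0.87 and -0.02 (ATG8A and ATG8G above 0 under some scalings), and the 8 other measured loci of the autophagy lists between -0.40 and 0.70, the highest being AT4G34660, which the filter kept only through axr4-2.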

How the data were processed

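Biotin-labelled cRNA from 2 whole-plant RNA samples was hybridised to ATH1 arrays, per the labels' protocols. The authors deposited linear intensities for 22810 probe sets. With 2% trimmed from each end, the intensities of either array averaged 100. How they were summarised from probes and background-corrected is not given here. Group membership came from the sample labels. Of the probe sets, 13513 were annotated with 1 gene, 503 with several and 8794 are unnamed here; names were updated through the RefSeq table of assembly TAIR10.1.

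Values below the 25th percentile of their array were raised to it, the brightest probe set stood for its gene, and the log2 ratio of axr4-2 over Col0 was taken. No test was possible with 1 array per group. No gene was named for likeness of pattern, since over 2 arrays any pair of genes correlates perfectly. The text names all 9 ATG8 genes, measured members of the autophagy lists and at most the 2 highest and 2 lowest of other lists, plus listed genes that the filter left out. Members and lists were chosen with earlier results of these data known. The steps were tested on simulated data, made from the Col0 array with added noise and with changes placed only in brighter genes. That test bears on the arithmetic and not on the error of the ATG8 ratios. Alternatives covered scaling, floor, a log2 offset of 32, dim genes and probe sets. The tools were matplotlib 3.10.9, statsmodels 0.14.6, pandas 2.3.3 and numpy 2.4.6 under Python 3.11.15.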

Additional observations from a re-analysis of the deposited data

How the results depend on the processing

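Over 8 alternatives the median ATG8 log2 ratio ranged from -0.31 to -0.23, and 68 of 72 alternative values of single ATG8 genes kept their sign and moved by less than the SD of 0.41; the other 4 turned sign, ATG8A with median centring (0.011) and ATG8G with median centring (0.014), quantile normalization (0.026) and the lowess trend removed (0.035). Many of these could hardly change, since the floors lie below all ATG8 values and each gene has 1 unshared probe set. The share of measured genes under 0 was 54.1% as reported, 50.0% with median centring, 50.1% with the trend removed, 49.2% with a 75th percentile filter and 69.6% without the filter, where the median of all genes equals the ratio of the floors (-0.17). Genes 2-fold or more higher numbered 60, and 107 with the trend removed, 7 with the offset of 32, 99 without the filter and 16 with a 75th percentile filter. Genes 2-fold or more lower numbered 94, and 51, 19, 226 and 31 under the same settings. Genes at -0.5 or less numbered 751, and 295 with the offset, 1649 without the filter and 262 with the 75th percentile filter; genes under 0 numbered 3453, and 9302 without it and 1518 with that filter. The autophagy lists outside ATG8 turned to a median of 0.0064 with that filter, which left 4 loci, and the root markers turned to -0.041 with quantile normalization and -0.015 with the trend removed; the cause was not tested. No paired analysis was possible because each group has 1 array, and leaving out an array was impossible. The offset of 32 moved ATG8D to -0.26 and ATG8B to -0.21.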
